A study of Xenopus laevis with 6 samples.

Results

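Intelectins are secreted lectins, proteins that bind sugars on the surface of microbes. In Xenopus embryos intelectin 1, also called embryonic epidermal lectin, is made by the skin, where mucus-secreting goblet cells lie beside multiciliated cells, ionocytes and small secretory cells in a mucociliary epidermis. Otogelin-like proteins are related to the gel-forming mucins and, like intelectins, are secreted. The genes were taken by name from a count table of 45090 genes, as rows whose symbol starts with itln and a digit or is otogl without its homeolog ending. This gave 3 genes, itln1.L, itln1.S and otogl.L. The endings L and S mark the homeologs, the copies of a gene that lie on the long and the short chromosomes of this allotetraploid frog. itln1.L was noted for its lower counts in half-size embryos, so the set was chosen by the measured difference between half-size and intact embryos, and the values in that comparison are a description.

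RNA was sequenced from whole wild-type Xenopus laevis embryos of Nieuwkoop and Faber stage 12.5, the late gastrula. The 3 half-size libraries came from embryos that each grew from 1 blastomere after the first cleavage products had been separated. The 3 intact libraries came from undivided siblings, and a half-size and an intact library with the same replicate number are called a pair here. All embryos were fertilized in vitro and dejellied in cysteine, and the sources used here do not say how many embryos went into a library. Where the labels name biological replicates they do not say how the parents differed between them. Total counts lay between 20069300 and 29284864 per library, so that 1 count was worth between 0.0348 and 0.0501 CPM (counts scaled to a common library size, here after TMM scaling). Summed CPM of a list of superficial epidermis genes lay between 12200 and 15840 in half-size and between 14710 and 17590 in intact libraries. The neural plate list summed to between 1692 and 2169 CPM in half-size and between 1606 and 2141 CPM in intact libraries. Genes of both lists were thus counted in every library. Whether those genes were particular to either kind of ectoderm was not tested. The libraries hold whole embryos and no epidermis was isolated, and fewer cells of a type cannot be told apart from less RNA per cell.

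Of the 3 genes, itln1.L carried nearly all of the counts. The RefSeq gene table, which is of assembly Xenopus_laevis_v10.1, gives xeel, the epidermal lectin, among its synonyms. The 3 half-size libraries held 248, 1615 and 360 counts of itln1.L in replicates 1, 2 and 3, which equal 10.6, 80.9 and 13.6 CPM. The 3 intact libraries held 998, 5420 and 797 counts, which equal 41.5, 188 and 39.3 CPM. Within each group replicate 2 stood far above the others, and within each pair the half-size library was the lower. The groups overlapped, because half-size replicate 2 lay 1.95-fold above intact replicate 1 and 2.06-fold above intact replicate 3.

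Ordered by level, itln1.L was highest in intact replicate 2, then half-size replicate 2, intact replicates 1 and 3, and half-size replicates 3 and 1. The highest library was 17.8-fold above the lowest. Intact replicates 1 and 3 were neighbours in this order that could not be told apart, with exact 95% Poisson intervals of 39.0 to 44.1 and 36.6 to 42.1 CPM. The intervals of half-size replicates 3 and 1 ran from 12.22 to 15.07 and from 9.33 to 12.02 CPM and did not overlap. Such intervals cover counting error only, and reads without molecular identifiers are not independent molecules.

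**Figure D1:**
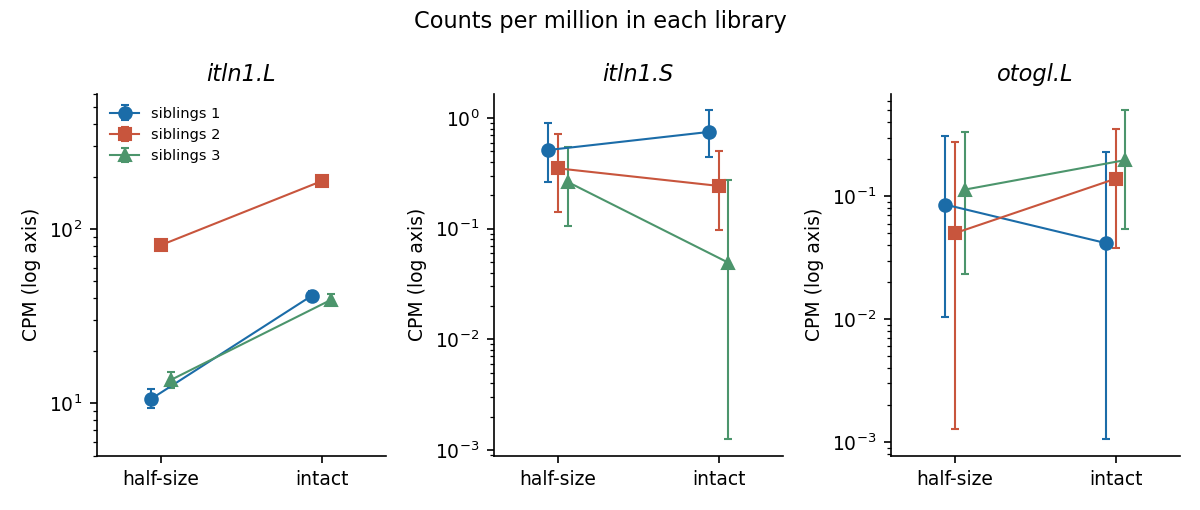
CPM of itln1.L, itln1.S and otogl.L in the half-size and intact libraries on log axes that differ between panels, with lines joining siblings of 1 replicate number and bars giving exact 95% Poisson intervals (counting error only). For itln1.L the half-size end of every line is the lower and the pair of replicate 2 lies above the others. Its levels there are 80.9 CPM in the half-size and 188 CPM in the intact library. For the other genes the bars overlap within each pair. Between pairs, the itln1.S bars of intact replicates 1 and 3 do not overlap.

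The S homeolog was close to the limit of counting. The RefSeq gene table has no entry named itln1.S, so the row is taken as the S homeolog only by its name in the count table. In half-size replicates 1, 2 and 3 itln1.S had 12, 7 and 7 counts, or 0.514, 0.351 and 0.264 CPM. In intact replicates 1, 2 and 3 it had 18, 7 and 1 counts, or 0.748, 0.243 and 0.0493 CPM. The sums were 26 counts in each group. The half-size to intact ratio of the summed counts was 1.05 with an exact 95% interval of 0.584 to 1.88. That interval pools the libraries and covers counting error only. Within pairs 1, 2 and 3 the ratio was 0.686, 1.44 and 5.36. At this depth no difference in itln1.S between the groups was detectable.

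Reads of itln1 thus came almost wholly from the L row. Its share of the L and S counts was 95.4% (exact Clopper-Pearson 95% interval 92.1 to 97.6%), 99.6% (99.1 to 99.8%) and 98.1% (96.1 to 99.2%) in half-size replicates 1, 2 and 3. In intact replicates 1, 2 and 3 the L share was 98.2% (97.2 to 98.9%), 99.87% (99.73 to 99.95%) and 99.87% (99.30 to 99.997%). The lowest share belonged to half-size replicate 1, the library with the fewest itln1.L counts. The S counts did not follow the L counts between libraries: replicate 2 had 7 S counts in both groups, beside 1615 L counts in the half-size and 5420 in the intact library. Reads that fit both homeologs may have been split in a way the sources used here do not state, so the S counts are uncertain. The share is one of reads and was not corrected for transcript length.

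Otogelin-like, otogl.L, was barely counted. It had 2, 1 and 3 counts in half-size replicates 1, 2 and 3, or 0.0856, 0.0501 and 0.113 CPM, and 1, 4 and 4 counts in intact replicates 1, 2 and 3, or 0.0416, 0.139 and 0.197 CPM. The summed counts were 6 in half-size and 9 in intact libraries, a ratio of 0.698 with an exact 95% interval of 0.205 to 2.20. This interval too covers counting error of pooled libraries only. Within pairs 1, 2 and 3 the ratio was 2.059, 0.3603 and 0.5745. At this depth no difference was detectable. The reference table also names itln2.L, itln1al.L, otog.L and otogl2.L, which were not matched to a count row by symbol and were not analysed here.

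Only itln1.L passed the filter on low counts, so 1 of the 3 genes was tested and the other 2 are described by their counts. Group means of itln1.L were 35.0 ± 39.7 CPM in half-size and 89.7 ± 85.4 CPM in intact libraries (SD, n = 3 each), so that the SD was about as large as the mean in both groups. In the fit with the group as its only term (edgeR's quasi-likelihood test) its log2 fold change was −1.36 ± 0.92 (SE). That fit called 0 of 21673 genes at an adjusted p of 0.05, 0% of those tested, and 776 had an unadjusted p under 0.05 (3.58%). limma-voom also called 0 and DESeq2 called 42. When sibling sets entered the model as a replicate block, the paired fit, itln1.L had a value of −1.55 ± 0.13 (SE) on the same scale and was 2.93-fold lower. The 2 fits thus gave similar sizes of the difference, and the SE was smaller once siblings were compared. The paired fit called 1283 genes, 5.92% of those tested, with 431 higher (1.99%) and 852 lower (3.93%), and itln1.L was 1 of the 852. Its log2 fold change was among the lowest 0.466% of all genes, where the median was 0.003. As this contrast chose the gene, its place there is no support for it.

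Within pairs, itln1.L in the half-size library stood at 0.256 of the intact level in pair 1 (95% interval 0.222 to 0.294), at 0.430 in pair 2 (0.406 to 0.454) and at 0.346 in pair 3 (0.305 to 0.392). It was lower in the half-size library of all 3 pairs, as were 22.6% of the genes tested, and the 3 intervals did not overlap, so the ratios differed between pairs by more than counting error. The CPM ranges of its groups overlapped, while those of 9.04% of the genes tested did not. Leaving out 1 pair kept the paired log2 fold change between −1.75 (without replicate 2) and −1.35 (without replicate 1). In the fit without pairing the log2 fold change moved to −0.19 without intact replicate 2 and to −2.89 without half-size replicate 2. Leaving out any other single library there gave values between −1.715 and −0.93. Its size without pairing thus depended on which library of replicate 2 was left out. The authors' deposited table lists itln1.L at mean normalized counts of 826 in half-size and 2102 in intact libraries, a ratio of 0.393. It has no row for itln1.S or otogl.L.

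**Figure D2:**
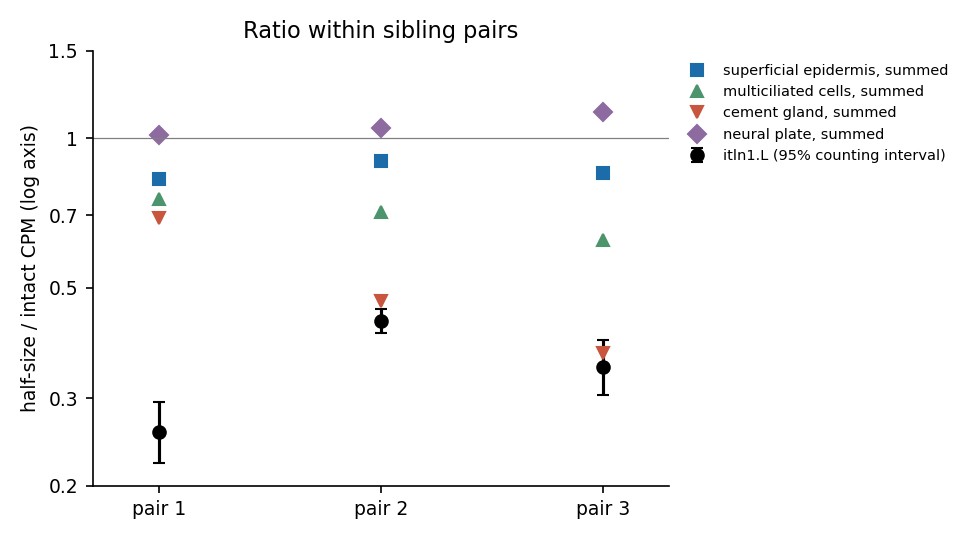
Half-size to intact ratio of CPM in each sibling pair on a log axis, for itln1.L with its 95% counting interval and for the summed CPM of 4 gene lists. itln1.L lies at 0.256, 0.430 and 0.346, below the superficial epidermis sum at 0.829, 0.9004 and 0.850 in the same pairs. The group difference chose itln1.L, so its place there is a description.

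The level of itln1.L differed between the 3 sets of siblings. This comparison did not choose the gene, but it is not independent of the one that did. In the fit without pairing the group difference was −1.36, and −0.19 without intact replicate 2, the library with the highest level. The test between sibling sets is therefore read as a description. Relative to replicate 1 its log2 level was 2.53 higher in replicate 2 and 0.10 higher in replicate 3, after allowing for the group (edgeR quasi-likelihood test of the replicate number, adjusted p = 1.97e-06). In half-size embryos replicate 2 was 7.62-fold above replicate 1 and 5.95-fold above replicate 3. In intact embryos it was 4.54-fold above replicate 1 and 4.80-fold above replicate 3, so that replicate 2 was the highest in both groups. Such differences were common in these libraries: 49.1% of the genes tested were called between replicate numbers. A range at least as wide as that of itln1.L, among called genes, was found for 3.07% of the genes, and the median range was 0.60 log2 units. Without replicate 2 the range of itln1.L was 0.13 log2 units and its call was lost (adjusted p = 0.648), so the difference between siblings rested on that pair.

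Of the squared deviations of log2 CPM of itln1.L over the 6 libraries, 68.5% lay between replicate numbers, 30.4% between the groups and 1.07% in neither. The medians over all genes tested were 73.1%, 9.12% and 8.99%. As the difference between the groups chose the gene, its share there beside the median is a description. The replicate numbers are the only batch the labels name. What differed between these sets of siblings (parents, day or exact age) is stated nowhere in the labels, and its part in the level of itln1.L was not tested.

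**Figure D3:**
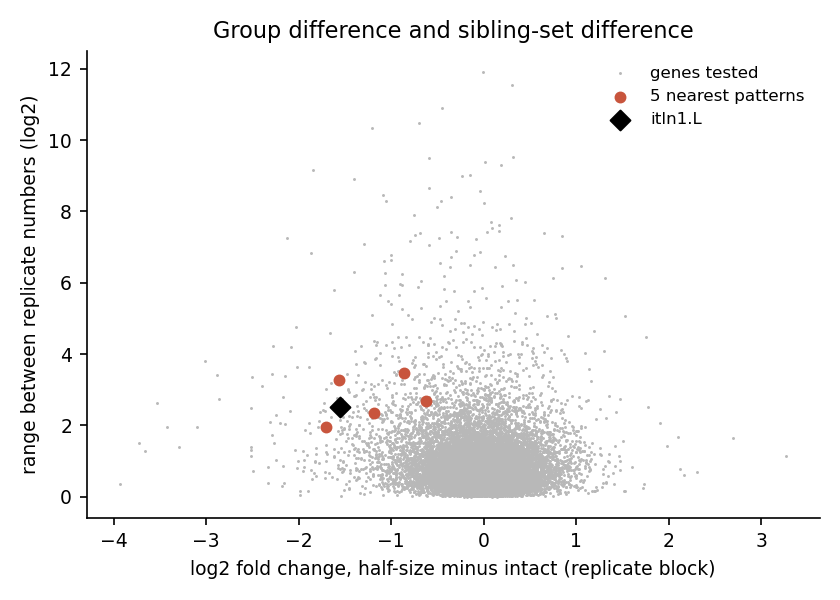
Each of the 21673 genes tested by its paired log2 fold change, half-size minus intact, and by its range between the 3 replicate numbers in log2 units, with itln1.L and the 5 genes of nearest pattern marked. itln1.L stands at −1.55 and 2.53, away from the dense region around 0.003 and 0.60 where the medians of all genes lie.

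The genes whose pattern over the 6 libraries was most like that of itln1.L were sought among 6820 genes with a symbol and a mean of at least 10 CPM. Likeness was the root mean square difference of log2(CPM + 0.5), centred on each gene's own mean. The nearest was rax.L, a homeobox gene of the eye field, at 0.303 log2 units. It had 2.27, 25.3 and 3.17 CPM in half-size replicates 1, 2 and 3 and 7.03, 61.1 and 12.22 CPM in intact replicates 1, 2 and 3. Like itln1.L it was highest in both libraries of replicate 2, and lower in the half-size library of each pair. Next came agr2.S, which encodes a secretory-pathway disulfide isomerase known in Xenopus from the mucus-secreting cement gland, at 0.487 log2 units. It had 6.72, 24.2 and 5.74 CPM in half-size and 16.04, 66.4 and 31.1 CPM in intact replicates 1, 2 and 3.

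The receptor tyrosine kinase gene axl.L (0.491), the anterior neural homeobox gene six3.S (0.496) and the myosin chaperone gene unc45b.S (0.498) followed, and the median over the genes searched was 1.41 log2 units. All 5 had replicate 2 as the highest library of each group, which follows from their choice by likeness to itln1.L. Their ranges between replicate numbers ran from 1.96 to 3.47 log2 units, and their paired log2 fold changes were −1.57 for rax.L, −1.70 for agr2.S, −0.62 for axl.L, −1.19 for six3.S and −0.86 for unc45b.S. The call of axl.L was lost without any 1 of the pairs (adjusted p = 0.0598, 0.0613 and 0.122 without replicates 1, 2 and 3) and with homeologs summed (adjusted p = 0.246), and that of unc45b.S without replicate 3 (adjusted p = 0.0576). In the fit without pairing and without intact replicate 2, rax.L, axl.L and unc45b.S changed sign, to 0.10, 0.87 and 0.95. The order rests on 6 libraries in 3 pairs and carries no test.

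**Figure D4:**
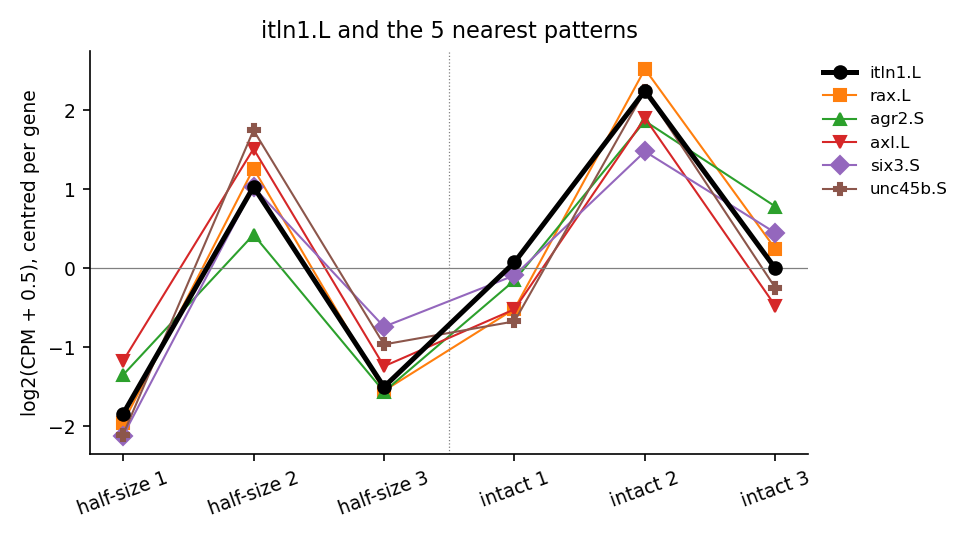
log2(CPM + 0.5), centred on each gene's mean, of itln1.L and the 5 genes of nearest pattern in the 3 half-size and the 3 intact libraries. All 6 genes peak in half-size replicate 2 and again in intact replicate 2, which follows from the choice of the 5 by likeness. itln1.L and rax.L differ by a root mean square of 0.303 log2 units.

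Genes named for the surrounding cell types and for other tissues were read from 11 lists with 169 tested genes in all. The paired fit called 42 of the 169 lower and 9 higher. Over all genes tested it called 3.93% lower and 1.99% higher, the shares to set beside each list count below. The lists were chosen with earlier results of these data known, so their counts are a description. The fit without pairing called 0 of the 169. The superficial epidermis list, which holds keratin and junction protein genes, had 13 lower and 5 higher of 29 tested genes. Whether its genes were particular to that layer was not tested. The median paired log2 fold change of the list was −0.25, beside 0.003 over all genes. The keratin genes krt12.L and krt12.S had paired log2 fold changes of −0.998 and −0.91 (edgeR, adjusted p = 0.0128 and 0.000685), and the periplakin gene ppl.S one of −0.88 (adjusted p = 0.0087). The 5 higher genes were krt18.S, epcam.L, epcam.S, cldn6.1.L and cldn6.1.S, of a keratin, an adhesion molecule and a claudin (0.42, 0.37, 0.36, 0.49 and 0.71). The calls of krt18.S, epcam.L and epcam.S were lost without replicate 3 (adjusted p = 0.0515, 0.053 and 0.0534), those of epcam.L and epcam.S also without replicate 2 (adjusted p = 0.183 and 0.0828), and that of krt18.S with homeologs summed (adjusted p = 0.369). The cldn6.1 calls were kept in every paired fit run. Summed over the list, CPM in half-size libraries was 0.829, 0.9004 and 0.850 of the intact level in pairs 1, 2 and 3, where itln1.L stood at 0.256, 0.430 and 0.346. In each pair the ratio of itln1.L was thus lower than that of the summed epidermal genes, a sum that a few abundant keratins dominate. As the gene was chosen for its lower counts in half-size embryos, its place below that sum is a description.

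krt12.L, like itln1.L, varied widely between replicate numbers (range 2.09 log2 units), while krt12.S had a range of 1.05 log2 units. On the median over the superficial epidermis list, replicates 1, 2 and 3 lay at −0.10, 0.14 and −0.08 log2 units from each gene's mean. Replicate 2 was thus the highest for the list too, by less than for itln1.L. This was not particular to the list. Replicate 2 was also highest for small secretory cells (0.298), multiciliated cells (0.259) and ionocytes (0.173). The same held for the mucous secretory pathway (0.109), non-neural ectoderm regulators (0.106) and the cement gland (1.14). It did not hold for the neural plate, basal epidermis, oocyte and egg coat, and other lectin lists.

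Genes of the secretory pathway of mucous cells had 3 lower and 0 higher of 17 tested, with a median of −0.07. The 3 were agr2.L, agr2.S and galnt12.L, which encodes an enzyme that starts O-linked mucin sugar chains, and they fell, with log2 fold changes of −1.53, −1.70 and −1.15 (paired adjusted p = 0.000973, 0.00127 and 0.00283). The cement gland list, which shares the agr2 genes, had 2 lower and 0 higher of 7, with a median of −0.74. Its summed CPM in half-size libraries was 0.692, 0.471 and 0.369 of the intact level in pairs 1, 2 and 3. All 7 of its genes were called between replicate numbers, beside 49.1% of all genes tested. On the median of the 7, replicate 2 lay 1.14 log2 units above each gene's mean, with replicates 1 and 3 at −0.64 and −0.39.

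Among the other cell types of the mucociliary epidermis, the list of multiciliated cells had 10 lower and 0 higher of 19 tested genes, with a median of −0.95. All 10 were homeologs of foxj1, foxj1.2, ccno, myb and foxn4. No tested homeolog of rfx2, rfx3, tekt3, plk4 or tp73 was called, among them the genes with the highest levels in the list. The regulators myb.S, myb.L and foxj1.2.L fell, with log2 fold changes of −2.18, −1.96 and −2.31 (paired adjusted p = 0.00351, 0.00258 and 0.00339), each beyond that of itln1.L. Paired without replicate 1, 2 or 3 the value of foxj1.2.L was −2.07, −3.11 or −2.02. That of myb.S was −1.96, −2.77 or −1.80. Between replicate numbers 9 of the 19 genes were called (47.4%), close to the 49.1% of all genes tested. The gene foxj1.2.L was among the 9 (range 2.11 log2 units), while myb.L and myb.S were not (0.73 and 0.29). The ionocyte list had 2 lower and 0 higher of 9 tested genes, with a median of −0.45. Of its 17 rows, 8 did not pass the filter. Both lower genes were homeologs of foxi1, the ionocyte regulator (foxi1.L and foxi1.S, −1.55 and −1.02). The list of non-neural ectoderm regulators also holds both. The list of small secretory cells had 0 called of 4 tested genes, with a median of 0.24. The 4 were the homeologs of foxa1 and insm1. Of the 8 rows of that list, 4 did not pass the filter, those of fev and pcsk2. The list thus cannot tell whether such cells were present.

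The basal epidermis list had 2 lower and 0 higher of 8 tested genes, tp63.L and tp63.S, with a median of −0.02. The log2 fold change of tp63.S, a gene of basal skin cells, was −2.51 (paired adjusted p = 0.000613). tp63.L (−1.89) averaged 0.247 CPM in half-size and 0.935 CPM in intact libraries, and its call was lost without replicate 3 (adjusted p = 0.0786). It is named, like the other genes outside the naming rule, after its value was seen. Regulators of non-neural ectoderm had 10 lower, the foxi1 homeologs included, and 0 higher of 28, with a median of −0.27. The POU-domain gene pou2f3.L had the largest fall among the genes of this list called in every fit without 1 pair (−1.90, paired adjusted p = 0.000516).

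Lists of other tissues were read in the same way. The neural plate list had 4 lower and 2 higher of 26 tested genes, with a median of 0.10. The 4 that fell were homeologs of rax and six3, which act in the eye field: rax.L (−1.57), rax.S (−1.38), six3.L (−1.42) and six3.S (−1.19). Without replicate 3 six3.S missed the threshold (adjusted p = 0.066), as did six3.L with paired DESeq2 (adjusted p = 0.0598). The 2 called higher were foxd4l1.1.L (0.49) and foxd4l1.1.S (0.44), and both calls were lost without replicate 2 (adjusted p = 0.0665 and 0.0846), that of foxd4l1.1.S also without replicate 3 (adjusted p = 0.0821). Genes of the oocyte and egg coat had 0 lower and 1 higher of 15, with a median of 0.15. The higher gene was zpax.L (0.63), a call lost without replicate 3 (adjusted p = 0.103). Other lectins, such as galectins and pentraxins, had 0 lower and 1 higher of 11 tested genes, with a median of −0.03. Here the higher gene was that of the pentraxin nptx2.S (1.42), which missed the threshold without replicate 1 (adjusted p = 0.0724) or replicate 3 (adjusted p = 0.155). None of the 11 was called lower, and 13 further rows of that list did not pass the filter. The part of any of these cell types in the level of itln1.L was not tested.

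Across the 11 lists, 14 of the 169 tested genes had a paired log2 fold change at or below that of itln1.L. Over all genes tested the share was 0.466%. The 14 include genes of low level that were not called in the paired fit. As the lists were chosen with earlier results known, the count of 14 is a description. A range between replicate numbers at least as wide as that of itln1.L was found for 5 of the 169. Over all genes the share was 3.07%, counted there only where the gene was called. The 29 further genes with the highest levels in their lists had paired log2 fold changes between −0.56 and 0.49, of which 4 were called lower and 0 higher. In the reference table the gene next to itln1.L on 1 side is rpp30.L, a ribonuclease P subunit gene. It was not called in the paired fit, with 0.29 ± 0.15 (SE) as its log2 fold change.

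**Figure D5:**
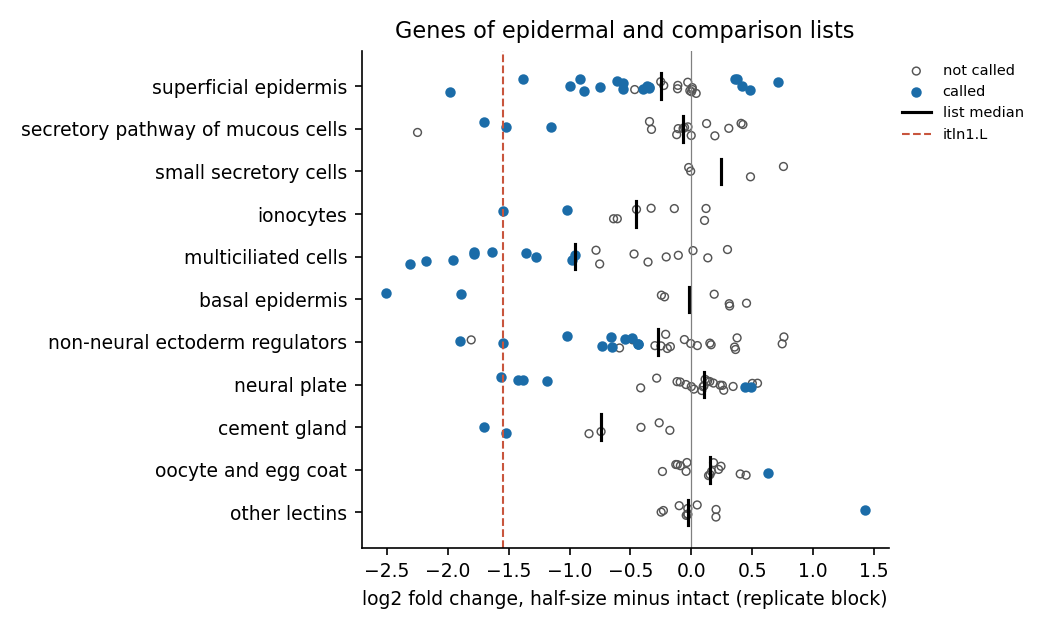
Paired log2 fold change, half-size minus intact, of each tested gene in 11 lists, filled where called at an adjusted p of 0.05, with the list median as a bar and itln1.L as a dashed line at −1.55. The list of multiciliated cells has the lowest median, −0.95, and the small secretory cell, ionocyte, oocyte and egg coat, and other lectin lists have no gene left of the dashed line.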

How the data were processed

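Read counts per gene and library, not normalized, were deposited by the authors with a table of their own comparison. Per the submitters' processing notes TopHat2, HTSeq and DESeq were used. Their versions, the genome build and the use of strand in counting are not stated, and no coordinates are printed. The authors' deposited table gives mean levels as a signal (counts over size factors), the fold change as a ratio of half-size to intact with its log2, and p-values. Recomputed intact means agreed within 1% for all 19508 genes compared. Of the members, 2 of 3 had an entry in the RefSeq table, itln1.L and otogl.L, and itln1.S had none.

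Counts were tested with the quasi-likelihood test of edgeR 4.0.16 in R 4.3.3 after TMM normalization and filterByExpr, with Benjamini-Hochberg adjustment over the 21673 genes kept and a threshold of 0.05. The group was the only term; the replicate block was the alternative. The numbers mark siblings per the labels, so they pair the libraries, and deviations from group means correlated at 0.771, 0.845 and 0.696 within numbers. Replicate numbers were tested in a model with the group. DESeq2 1.42.0 and limma 3.58.1 were alternatives. The fits were tested on simulated data. Chi-square per degree of freedom between libraries was at least 13.3, so each counted as 1 sample.

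The members and lists were chosen with earlier results of these data known. Of 179 list symbols 116 were matched, 9 rows through synonyms. The text names the 3 genes, the 5 nearest patterns and a few others where counts were small or a list is described. It also names the up to 3 largest differences per list called in the paired fit and in every fit without 1 pair. The 3 genes per list with the highest level are given as a range. No p-values between the groups are given for the members, since that contrast chose them.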

Additional observations from a re-analysis of the deposited data

How the results depend on the processing

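The log2 fold change of itln1.L was negative under every alternative run. It was past the threshold in each paired fit, at −1.55 with the replicate block, −1.55 with paired DESeq2, −1.54 with paired RLE size factors, −1.53 with the block and no low-count filter and −1.52 with the block and homeologs summed. Paired without replicate 1, 2 or 3 it was −1.35, −1.75 or −1.55, and leaving out single libraries without pairing gave −2.89 to −0.19. Without pairing it never passed. As this contrast chose the gene, its passes in the paired fits are no support for it. The fits whose calls follow tested different numbers of genes. These were 21673 as reported and with the block, 23416 with DESeq2, 16701 with paired DESeq2, 35048 without the filter and 16872 with homeologs summed. Paired without replicate 1, 2 or 3 they were 22013, 21988 or 21928. The count of genes called was 0 as reported, 1283 with the replicate block, 42 with DESeq2, 1065 with paired DESeq2, 1271 with the block and RLE size factors, 2568 with the block and no filter, 1044 with the block and homeologs summed, and 1471, 1055 and 507 paired without replicate 1, 2 and 3; it stayed 0 without any single library. Of the list genes 0 were called as reported, 51 with the replicate block, 7 with DESeq2, 46 with paired DESeq2, 49 with the block and RLE size factors, 70 with the block and no filter, and 55, 39 and 33 paired without replicate 1, 2 and 3. Genes called between replicate numbers were 10631, and 4663 to 9512 with a replicate number left out, where the range of itln1.L was 0.13 to 2.52 log2 units. The cause of these differences was not tested. Leaving out intact replicate 2 without pairing reversed rax.L (0.10), axl.L (0.87) and unc45b.S (0.95), the top of ranges whose lowest values, without half-size replicate 2, were −3.30, −2.14 and −2.61. Of 567 alternative values of the 30 other genes named, 351 kept direction and side of the threshold, and 213 passed it where the fit without pairing did not. Some of these genes were named because paired fits called them, so their passes in those fits follow from that choice. Levels of the 3 genes moved by less than 1 SD under other scalings. The homeolog share, which only itln1 has, is taken from counts within a library, so scaling cannot change it. Depth limits itln1.S and otogl.L, at 1 to 18 counts per library. Dropping a pair leaves 4 libraries.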
